A study of Mus musculus with 20 samples.

Results

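The genes described here encode the protein components of the cytosolic ribosome, measured by RNA sequencing in the livers of 20 female mice. They were picked by name: a symbol starting with Rpl or Rps and a digit, or Rplp0, Rplp1, Rplp2 or Rpsa, without pseudogenes and without the Rps6k kinases. This gave 81 genes of the 23993 genes with an intact line in the deposited table. The mice made up 4 groups of 5, each mouse giving 1 liver library. Con.Sed mice had a vehicle diet without wheel running (vehicle sedentary), and Con.VWR mice had the vehicle diet and voluntary wheel running (vehicle running). OC.Sed mice had oral combined contraceptives in the diet without wheel running (OC sedentary), and OC.VWR mice had both (OC running). Strain, age, the contraceptive agents and their dose are not given in the sources used here. Replicate numbers below only name the libraries within a group.

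A ribosome is built of a small and a large subunit, each a scaffold of ribosomal RNA with many proteins bound to it in fixed proportion. The messenger RNAs for these proteins belong to the TOP class: they start with a C followed by a run of pyrimidines, through which mTORC1 and the RNA-binding protein LARP1 control their translation and stability. The liver makes most plasma proteins and carries a large pool of ribosomes, whose size is known to follow feeding and growth signals.

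The start sites of the genes are shown first. Any link between these sequences and the shared movement of the genes described below was not tested. RefSeq (GRCm38.p6) had a promoter entry for 59 of the 78 genes that could be tested. Each line gives 100 bases before the annotated start and 20 bases from it, on the gene's own strand, and capitals mark every match to a searched motif on either strand. Rpl12 and Rps6 are shown for the shared CTCGCGA motif, which overlaps its own reverse complement there. Rps10 is shown for CCGGAAG with CTTTCC at the start. Rpl4 hardly followed the others among mice of the same group, Rps2 followed them weakly, and Rpl22l1 was the paralogue that varied most.
Rpl12, chr2:32961612-32961731, plus strand: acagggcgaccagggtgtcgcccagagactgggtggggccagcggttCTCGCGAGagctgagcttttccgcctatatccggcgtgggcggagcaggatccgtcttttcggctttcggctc
Rps6, chr4:86857348-86857467, minus strand: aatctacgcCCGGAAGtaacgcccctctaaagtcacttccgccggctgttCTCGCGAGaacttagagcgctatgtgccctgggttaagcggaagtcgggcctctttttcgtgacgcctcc
Rps10, chr17:27635225-27635344, minus strand: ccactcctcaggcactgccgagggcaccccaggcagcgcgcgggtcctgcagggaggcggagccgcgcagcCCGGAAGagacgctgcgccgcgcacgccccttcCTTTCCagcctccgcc
Rpl4, chr9:64173287-64173406, plus strand: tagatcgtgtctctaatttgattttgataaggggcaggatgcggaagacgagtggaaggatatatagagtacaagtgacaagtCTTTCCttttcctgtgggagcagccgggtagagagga
Rps2, chr17:24719963-24720082, plus strand: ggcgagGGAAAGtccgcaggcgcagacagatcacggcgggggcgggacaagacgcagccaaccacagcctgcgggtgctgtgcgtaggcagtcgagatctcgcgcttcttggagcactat
Rpl22l1, chr3:28805408-28805527, plus strand: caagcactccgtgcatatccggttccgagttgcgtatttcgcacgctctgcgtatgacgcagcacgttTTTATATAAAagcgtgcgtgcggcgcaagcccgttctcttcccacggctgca

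Over the full window of 300 bases (250 before the start and 50 from it), both strands searched, CTTTCC was found in 47.5% of the 59 promoters and in 26.3% of all 27025 promoters. CCGGAAG, the core recognised by ETS factors, was in 39% against 9.12%. CTCGCGA was in 22% against 2.03%, and TATAAA in 8.47% against 14.2%. In Rpl22l1 the matches TTTATA and TATAAA overlap. Read on the gene's own strand from 15 bases before the start to 25 from it, CTTTCC was in 13.6% against 1.89%. Of the lines shown, those of Rps6 and Rps10 start with a C and pyrimidines at the annotated start, and the others do not. These are matches of letters, not measured binding sites.

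The genes lie on 19 chromosomes, 3 of the tested ones on X. Their transcripts are short, with a median of 705 bases against 2272 for all protein-coding genes (GENCODE vM21, GRCm38). Of the 78 tested genes 29 (37.2%) hold at least 1 small nucleolar RNA gene within their bounds, 57 in all, against 1.18% of all protein-coding genes. The search of the tested genes also took in small Cajal body RNA genes, and that of all protein-coding genes did not. Another annotated gene overlaps 28 of them, on the same strand in 6 (for example Gm45713 over Rpl13a) and on the opposite strand in 23. The strand setting of the counting is not given in the sources used here, and ribosomal protein genes have many processed pseudogenes, so reads could be split or shared for any of these genes.

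The library totals, summed over the intact lines only, ran from 10883936 to 16134618 counts. As a check of the tissue, 7 usable hepatocyte markers summed to between 94024 and 213465 CPM (counts scaled to a common library size) in every library. Of the 81 genes, 78 passed the filter on low counts. The other 3 are paralogues: Rpl10l had no counts, Rpl39l a mean of 0.0438 CPM and Rpl3l, the form of heart and skeletal muscle, 0.237 CPM. The tested set holds 73 of the 80 standard cytosolic ribosomal protein genes (43 of the large and 30 of the small subunit), the paralogues Rpl7l1, Rpl22l1, Rpl36al and Rps27l, and Rps19bp1, which fits the naming rule but encodes a protein that binds RPS19.

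Mean levels ran over a wide range. Rpl13a, a large-subunit protein, had the highest mean at 978.5 CPM, followed by Rps24 at 841 and Rpsa at 741 CPM. Rps19bp1 had the lowest at 12.9 CPM, then Rpl22l1 at 35.8 and Rpl39, a protein of the exit tunnel, at 84.9 CPM. Per kilobase of transcript the order was different: Rps12 had 1184 CPM per kb, the very small Rpl41 had 1099.8 and Rps18 had 1014 CPM per kb.

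Shares are of the counts in intact lines. Together the 81 genes took 2.80, 3.23, 2.44, 2.87 and 3.16% of these counts in the 5 vehicle sedentary libraries. The vehicle running libraries held 1.85, 2.86, 2.11, 1.87 and 2.64%. The OC sedentary libraries held 2.18, 2.77, 2.49, 3.13 and 3.11%, and the OC running libraries 4.13, 2.69, 3.72, 3.11 and 2.78%. The groups overlapped, with the vehicle running group lowest on average and the OC running group highest. The means were 2.90 ± 0.316, 2.27 ± 0.461, 2.74 ± 0.407 and 3.29 ± 0.621% (SD, n = 5) in the same order. Fewer cells of a type and less RNA per cell cannot be told apart in such bulk tissue.

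**Figure D1:**
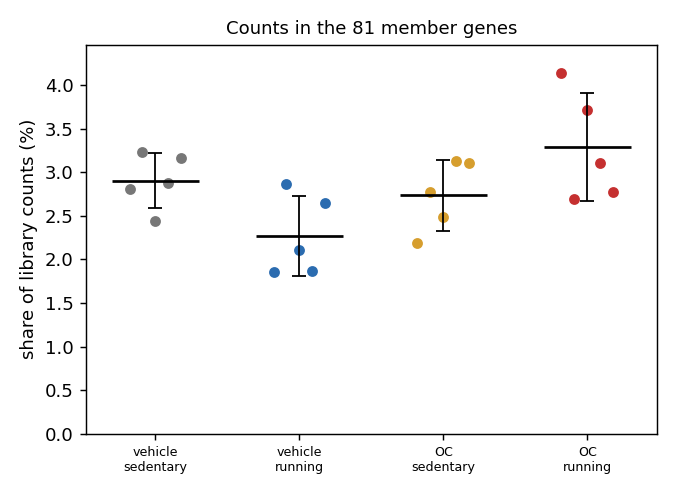
Share of each library's counts in intact lines (%, vertical axis) that fell in the 81 genes, by group. Points are libraries, the long bar is the mean and the whisker the SD of 5. The vehicle running group has the lowest mean (2.27%) and the OC running group the highest (3.29%), and the groups overlap.

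A few libraries set the extremes for almost the whole set. OC running replicate 1 was the highest of the 20 libraries for 72 of the 78 tested genes. Vehicle running replicate 1 was the lowest for 57 and vehicle running replicate 4 for 11. Vehicle sedentary replicate 5 was the highest for 5 genes. Counts of called genes are therefore also given with single libraries left out.

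The genes also varied together among mice of the same group. After each group's mean was removed, the median correlation over the 3003 pairs of genes was 0.89 across the 20 libraries, and 90.5% of pairs were above 0.5. All points share library and scaling, so this is a description. In each contrast below, counts of genes with the same sign or a low unadjusted p are therefore not counts of independent observations. The typical spread within a group was somewhat larger than for other genes, with a median biological coefficient of variation of 0.173 against 0.149 over all tested genes.

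Within groups, the genes differed in how far they followed the rest. With each group's mean removed, the slope of a gene's log2 level on the mean of the others was above 1 in 43 genes. It was under 0.5 in 10. The steepest were Rpl22l1 at 1.60, Rpl34 at 1.57, Rps27a, which is made as a fusion with ubiquitin, at 1.57, and Rps12 at 1.56. The flattest were Rpl4, whose long extension lines the exit tunnel, at 0.01, Rpl28 at 0.18 and Rps2 at 0.26. Rpl4 had a correlation of 0.05 with the other genes within groups. Rank correlation of the slope with transcript length was -0.28 over the 78 genes, and with the OC change in running mice it was 0.65.

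**Figure D2:**
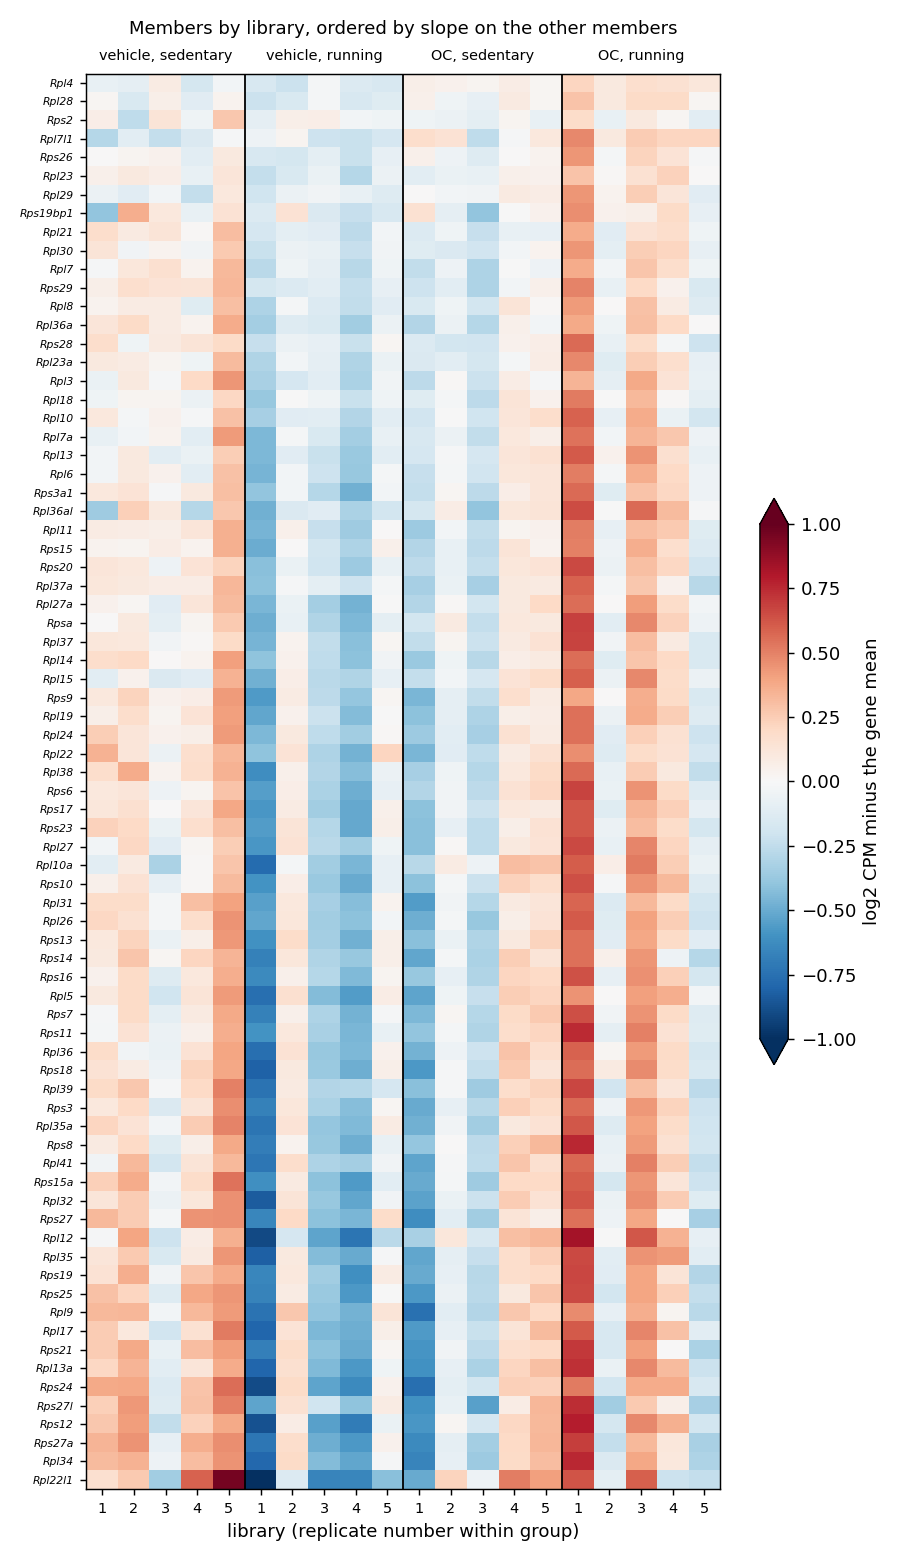
Log2 CPM of each of 76 of the 78 tested genes minus that gene's mean over 20 libraries (colour), with genes in rows ordered by their slope on the other genes and libraries in columns by group. OC running replicate 1 is the darkest red column and vehicle running replicate 1 the darkest blue one, while the rows of Rpl4, Rpl28 and Rps2 at the top are nearly flat.

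By edgeR calls, OC against vehicle in running mice gave more changed ribosomal protein genes than any of the other contrasts. There, 29 of the 78 genes rose on OC and none fell (edgeR quasi-likelihood test, Benjamini-Hochberg adjusted p under 0.05), against 7.09% of all 10207 tested genes that were higher, 6.06% that were lower and 13.2% called in either direction. All 78 fitted changes were above 0, against 51% of all genes, with a median of 0.43 on the log2 scale against 0.01 for all genes. Another 29 genes had an adjusted p between 0.05 and 0.1, and 70 of the 78 had an unadjusted p under 0.05, against 28.2% of all genes. The large subunit gave 16 of 43 and the small subunit 10 of 30 standard genes. The median SD within groups, on the log2 scale, was 0.22 for the called genes and 0.26 for the others. The count ranged from 7 without OC running replicate 1 to 51 without OC running replicate 2. It was 11 without OC running replicate 3, 19 without replicate 4 and 49 without replicate 5 of that group, and 13, 50, 14, 13 and 33 without vehicle running replicates 1, 2, 3, 4 and 5.

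Rpl12, a protein at the base of the large subunit's stalk where elongation factors bind, showed the largest change. Its level was 196, 326, 254, 221 and 304 CPM in the vehicle running libraries and 651, 366, 563, 466 and 346 CPM in the OC running libraries. Every OC running library was above every vehicle running library. The log2 fold change was 0.88 (SE 0.18, edgeR adjusted p = 0.00305). The gene lies on chromosome 2 at 32961559 to 32965345 (plus strand) and overlaps Lrsam1 on the other strand.

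Rpsa, the small-subunit protein also known as the laminin receptor, had 519, 691, 591, 532 and 681 CPM in vehicle running mice and 1166, 676, 1012, 852 and 702 CPM in OC running mice. The ranges overlapped, since OC running replicates 2 and 5 lay near the upper vehicle libraries. The log2 fold change was 0.55 (SE 0.14, edgeR adjusted p = 0.0120). Rps6, the small-subunit protein phosphorylated by the S6 kinases, had 251, 383, 295, 262 and 347 CPM on vehicle and 585, 349.8, 500.0, 419 and 336 CPM on OC in running mice. These ranges overlapped too. Its log2 fold change was 0.51 (SE 0.15, edgeR adjusted p = 0.0303). It stayed under the threshold in 21 of 27 alternative settings and missed it in 6.

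Among other large-subunit genes, Rpl10a rose by 0.60 (SE 0.16, edgeR adjusted p = 0.0145) and Rpl35, which sits at the tunnel exit, by 0.59 (adjusted p = 0.0372). In the small subunit Rps12 rose by 0.67 (SE 0.21, edgeR adjusted p = 0.0385). Several panel genes did not pass. Rpl5 and Rpl11, which carry the 5S RNA into the ribosome and can bind MDM2, had log2 fold changes of 0.51 and 0.38 (edgeR adjusted p = 0.0607 and 0.0552). Rpl3, near the peptidyl transferase centre, had 0.34 (adjusted p = 0.0600) and Rpl10, a late-joining protein, 0.34 (adjusted p = 0.0861). Rps3, at the mRNA entry channel, had 0.45 (adjusted p = 0.0922), Rps23, at the decoding centre, 0.41 (adjusted p = 0.0885), and Rps19, mutated in Diamond-Blackfan anaemia, 0.45 (adjusted p = 0.113).

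In 10 genes no OC running library overlapped a vehicle running library, all of them higher on OC, against 5.44% of all tested genes that were higher without overlap and 4.95% that were lower. Among them were Rpl4, Rpl7l1, Rpl12, Rpl13, Rpl23, Rpl28, Rpl36a, Rpl36al and Rps26, and all 10 were also called. Of these, Rpl4, Rpl7l1, Rpl23, Rpl28 and Rps26 had slopes under 0.5 on the other genes. Rpl4 had 556, 534, 613, 565 and 557 CPM in vehicle running mice and 720.0, 663, 696, 690.4 and 673 CPM in OC running mice. The lowest OC library was above the highest vehicle library. The log2 fold change was 0.28 (SE 0.07, edgeR adjusted p = 0.0111). Rps26, at the mRNA exit channel, rose by 0.31 (adjusted p = 0.0184).

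In running mice 7 calls, those of Rpl4, Rpl7l1, Rpl12, Rpl13, Rpl28 and Rpsa among them, were kept in each of the 27 alternative settings tried. The other 22 called genes lost the call in at least 1 of them, and none changed sign. Rps2, a small-subunit protein at the entry channel, had the smallest change. It had 630.4, 698, 702, 657 and 652 CPM in vehicle running mice and 760.0, 637, 716, 681 and 622 CPM in OC running mice. The ranges overlapped almost fully, with a log2 fold change of 0.03 (SE 0.09, edgeR adjusted p = 0.846).

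**Figure D3:**
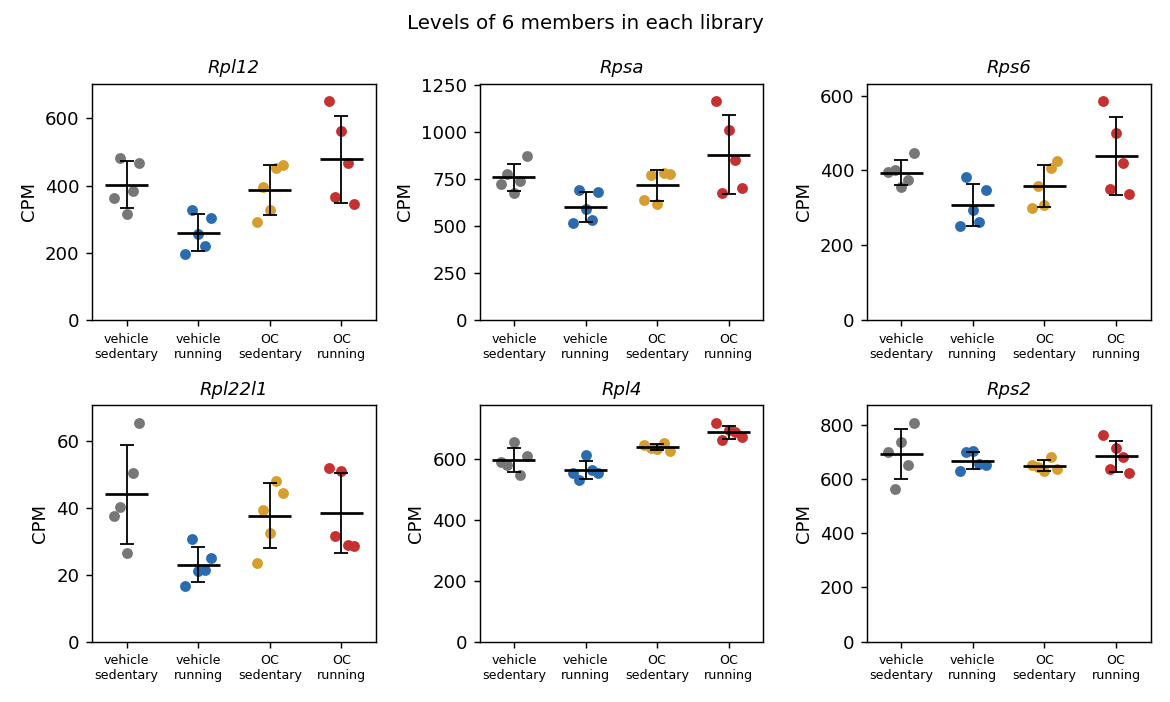
CPM (vertical axes, from 0) of 6 genes in each library by group; points are libraries, the long bar is the mean and the whisker the SD of 5. Rpl12 in OC running mice (346 to 651 CPM) lies above vehicle running mice (196 to 326 CPM), Rpl4 separates with a small spread, and Rps2 overlaps.

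Of the 4 tested paralogues, 3 rose in OC running mice. Rpl22l1, the paralogue of Rpl22, had 16.6, 30.6, 21.3, 21.4 and 25.2 CPM in vehicle running mice and 51.9, 31.5, 50.9, 29.1 and 28.5 CPM in OC running mice. OC running replicates 4 and 5 lay below the highest vehicle library. The log2 fold change was 0.74 (SE 0.24, edgeR adjusted p = 0.0447), and 0.61 (adjusted p = 0.140) without OC running replicate 1. Rpl22 itself had 0.26 (adjusted p = 0.281). Rpl7l1, a paralogue of Rpl7 that acts in ribosome assembly, rose by 0.38 (SE 0.09, adjusted p = 0.00879) and Rpl36al by 0.57 (adjusted p = 0.0152). Rps27l, a p53-responsive paralogue of Rps27, had 0.29 (adjusted p = 0.383), and Rps19bp1 had 0.25 (adjusted p = 0.235).

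In sedentary mice none of the 78 genes passed the threshold for OC against vehicle in the edgeR test, against 16.3% of all genes (9.11% higher and 7.2% lower), and 6 had an unadjusted p under 0.05, against 30.7%. DESeq2 called 4, all lower, and limma voom called none. Fitted changes were above 0 in 5 and below 0 in 73 of the 78 genes, where 48.2% of all genes were above 0, with a median of -0.21 against -0.01 for all genes. Rpl21 came nearest. Its level was 408, 385, 394, 364 and 446 CPM on vehicle and 328, 349, 307, 344 and 341 CPM on OC. Every OC library was below every vehicle library, with a log2 fold change of -0.26 (SE 0.09, edgeR adjusted p = 0.0542). Rpl11 and Rps29 were the other 2 genes without overlap, also lower on OC, against 4.01% of all tested genes lower and 7.01% higher without overlap. These 3 of the 78 genes are near the share of all genes that were lower. Rpl36a had -0.28 (adjusted p = 0.0586) and Rps29 had -0.28 (adjusted p = 0.0690).

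**Figure D4:**
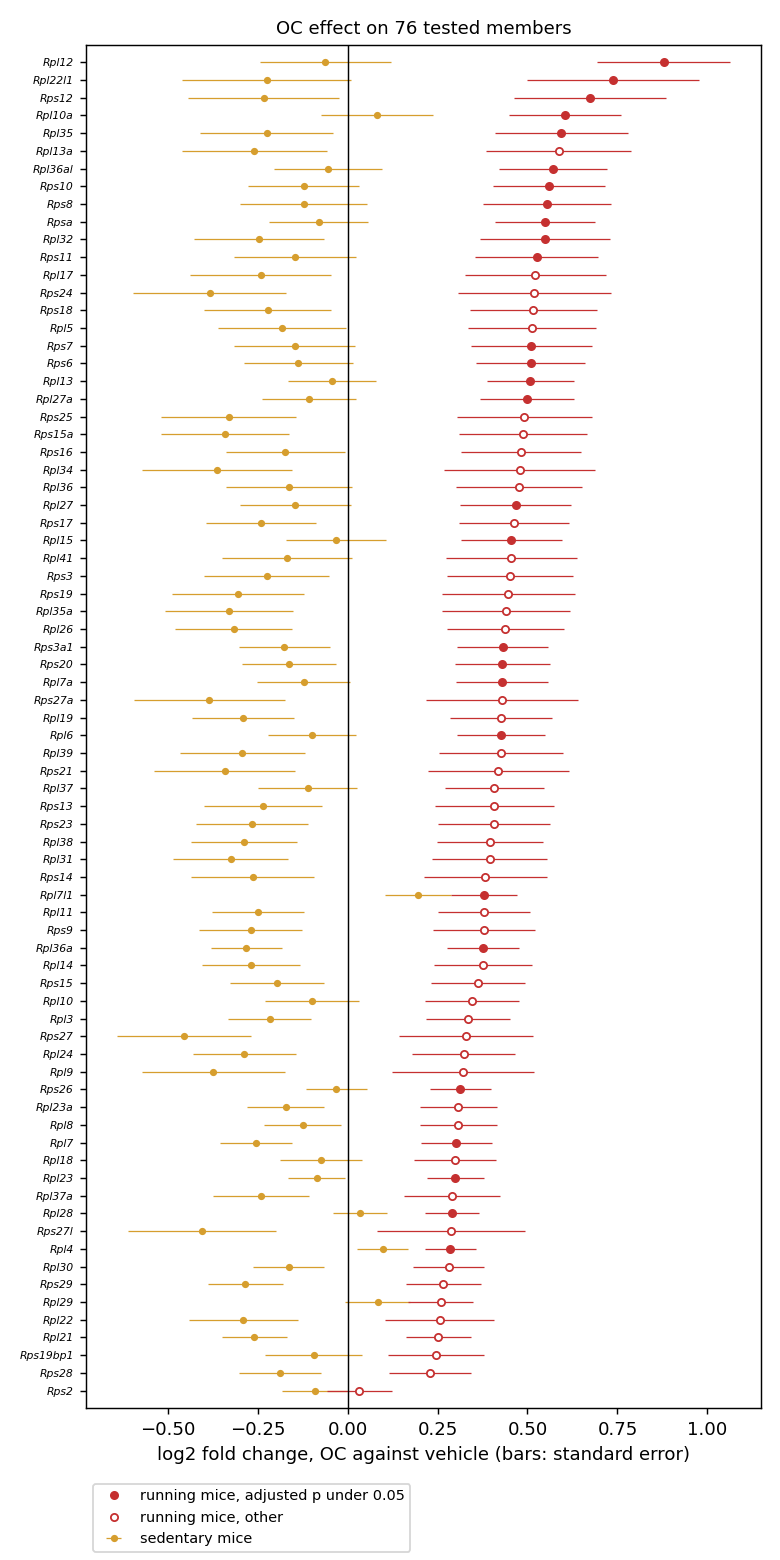
Fitted log2 fold change, OC against vehicle, of 76 of the 78 tested genes in sedentary (ochre) and running (red) mice, with bars of 1 standard error; filled red points have an adjusted p under 0.05. All 76 red points lie above 0 and 71 of the 76 ochre points below it.

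Running was compared with sedentary life on each diet. On vehicle, edgeR called none of the 78 genes (0% of all genes), DESeq2 called 1, lower, and limma voom none. Here 59 of the 78 had an unadjusted p under 0.05, against 13.9% of all genes, and 1 of the 78 fitted changes was above 0, against 47.3% of all genes, with a median of -0.36. In 12 genes every running library was below every sedentary one, against 0.921% of all genes lower and 1.09% higher without overlap. Among them were Rpl7, Rpl10, Rpl11, Rpl13, Rpl21, Rpl30, Rpl36a, Rpl37a, Rps3a1, Rps20 and Rps29. Rpl12 had a log2 fold change of -0.63 (adjusted p = 0.228) and Rpl22l1 of -0.94 (adjusted p = 0.205). Rpl7l1 was the gene with a change above 0, at 0.03 (adjusted p = 0.887).

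On the OC diet, edgeR, DESeq2 and limma voom called none for running (0% of all genes by edgeR), and 19 had an unadjusted p under 0.05, against 6.8%. All 78 fitted changes were above 0, against 49.7% of all genes, with a median of 0.27. Rpl4 was the gene without overlap, higher in running mice, against 0.304% of all genes higher and 0.754% lower without overlap. It had 647, 638, 633, 653 and 628 CPM in OC sedentary mice, and the log2 fold change was 0.11 (SE 0.07, edgeR adjusted p = 0.701). These comparisons share groups with the OC comparisons: the vehicle running libraries enter both the OC effect in running mice and the running effect on vehicle.

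The interaction tests whether the OC effect differed between running and sedentary mice. No gene passed in edgeR (0% of all genes), while 73 of the 78 had an unadjusted p under 0.05, against 17.7%, and DESeq2 called 9, all higher. All 78 fitted interactions were above 0, against 51.4% of all genes, with a median of 0.64. The lowest adjusted p was that of Rpl36a, with an interaction of 0.66 (SE 0.14, edgeR adjusted p = 0.163), and Rpl12 had 0.94 (SE 0.26, adjusted p = 0.201). By edgeR the OC effect on these genes is therefore not shown to differ between running and sedentary mice.

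Averaged over activity, 6 of the 78 genes were called higher on OC and none lower. Over all genes, 11.9% were higher, 11% lower and 22.9% called in either direction. The 6 genes were thus below the share of all genes called higher. The average combines opposite fitted directions, with medians of -0.21 in sedentary and 0.43 in running mice. Fitted changes were above 0 in 71 of the 78, against 50.1% of all genes. Among the 6 genes were Rpl7l1 (0.29, edgeR adjusted p = 0.00251), Rpl4 (0.19, adjusted p = 0.00831), Rpl12 (0.41, adjusted p = 0.0264), Rpl10a and Rpl28. The count was 2 without vehicle running replicate 1, OC sedentary replicate 5, or OC running replicate 1 or 3, and 11 without OC running replicate 2. Running averaged over diet called none in edgeR, DESeq2 or limma voom (0% of all genes by edgeR), 1 gene had an unadjusted p under 0.05, against 4.86%, and the median change was -0.04, with 15 of the 78 above 0, against 48.6%.

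Genes of related steps were counted from lists, by the same edgeR test. Many listed genes had no intact line under their symbol, so the counts below cover only a part of each step. Intact lines were found for 33 of 37 assembly and import genes and 7 of 15 RNA polymerase I genes. They were found for 18 of 28 elongation factor and TOP genes, 16 of 42 initiation factors and 20 of 32 mTORC1 and LARP1 genes. Over all tested genes, OC calls were 7.09% higher and 6.06% lower in running mice, and 9.11% higher and 7.2% lower in sedentary mice. Of 33 tested genes for ribosome assembly and ribosomal protein import, 8 rose and none fell on OC in running mice (median 0.24), among them Nop56, a box C/D small nucleolar RNA protein, by 0.59 (adjusted p = 0.00250) and Nle1 by 0.82 (adjusted p = 0.00376). In sedentary mice 4 rose, near the share over all genes, and none fell. Rrs1 was among the 4, with a rise of 0.50 (edgeR adjusted p = 0.00667). Of 7 tested genes of RNA polymerase I, which makes ribosomal RNA, 2 rose in running mice: Polr1e by 0.69 (adjusted p = 0.0166) and Polr1c by 0.41 (adjusted p = 0.0306). None of the 7 was called in sedentary mice, and the list's median change was 0.20 in running and 0.22 in sedentary mice.

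Of 18 tested elongation factor and other TOP mRNA genes, 3 rose in running mice: Gas5, a small nucleolar RNA host gene, by 0.51 (adjusted p = 0.0187), Rack1, a small-subunit protein outside the naming rule, by 0.57 (adjusted p = 0.0241), and Eef1b2 by 0.48 (adjusted p = 0.0379). In sedentary mice 3 of them fell, Eef1d, Vim and Btf3. Of 16 initiation factors, 1 rose in running mice (Eif4a1, by 0.30, adjusted p = 0.0255) and 3 fell in sedentary mice. The single call in running mice is near the share over all genes. Of 19 genes of mTORC1 and LARP1 control, 3 rose and 3 fell in running mice, and 3 rose and none fell in sedentary mice. Ddit4, an inhibitor of mTORC1, rose by 1.83 in running mice (adjusted p = 0.0144) and by 1.46 in sedentary mice (adjusted p = 0.0438). Myc, a transcription factor that drives ribosome production, rose by 2.40 in running mice (adjusted p = 0.0306) and had a log2 fold change of 1.82 in sedentary mice (adjusted p = 0.0691). Mtor fell by 0.27 in running mice (adjusted p = 0.0493).

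As another group of short and abundant transcripts, 36 nuclear genes of respiratory complex I (median transcript 763 bases) were counted. Of these none rose and 3 fell on OC in running mice (median 0.00), near the 6.06% of all genes that were lower. In sedentary mice none rose and 13 fell (median -0.32), where 7.2% of all genes were lower. Running on the OC diet gave fitted changes above 0 in 33 of the 36 (median 0.23), against 49.7% of all genes. The fitted interaction was above 0 in 33 (median 0.34), against 51.4% of all genes. The running change on vehicle was above 0 in 6 (median -0.10), against 47.3%. None of the 36 was called in these contrasts, whose fitted directions were mostly those of the ribosomal protein genes.

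Markers of other cells moved with diet as well. Intact lines were found for 8 of 12 listed stellate, 6 of 12 lymphocyte, 8 of 12 macrophage and 7 of 10 hepatocyte markers. Of 8 tested stellate cell and fibroblast markers, 7 fell on OC in sedentary mice and 4 in running mice, and their summed level was 526 to 675 CPM in vehicle running and 361 to 547 CPM in OC running libraries. Of 6 lymphocyte markers 4 fell in sedentary mice and 1 in running mice, with sums of 6.68 to 9.82 CPM in vehicle running and 4.98 to 9.13 CPM in OC running libraries. Among 7 hepatocyte markers 3 fell on OC in each activity group, Alb by 0.79 in running mice (adjusted p = 0.000869). Albumin took 10.96 to 14.2% of the counts in intact lines in vehicle running libraries and 6.29 to 8.82% in OC running libraries. Of 8 macrophage, 11 endothelial, 5 bile duct and 9 proliferation markers none was called in running mice. In sedentary mice 1 macrophage marker (Csf1r) rose and 1 proliferation marker (Pcna) fell, and no endothelial or bile duct marker was called. None of the stellate, lymphocyte or hepatocyte markers was at 0 in a whole group, and the part of these shifts in the ribosomal protein result was not tested.

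Outside the naming rule, 6506 genes averaging 10 CPM or more were ranked by the correlation of their log2 level with the mean of the 78 genes over 20 libraries. The closest was Gm45713 (r = 0.98), whose annotation overlaps Rpl13a on the same strand. Next came Eef1b2, an elongation factor subunit (r = 0.97), Hint1 (0.95), Rack1 (0.95), Nme2 (0.95), Emc7 (0.94), Use1 (0.94), Gm20390, which spans Nme1 and Nme2 (0.93), Tm2d1 (0.93) and Pfdn5 (0.93).

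The stalk proteins Rplp0 and Rplp1, close partners of Rpl12, had displaced lines in the table, with their values shifted right by 1 library. Moved back, their levels over 19 libraries had a correlation with the mean of the 78 genes of 0.91 and 0.94, against 0.07 and 0.05 as they stand. In that alternative, chosen after the data were seen and without vehicle running replicate 5, Rplp0 had a log2 fold change of 0.55 for OC in running mice (SE 0.13, edgeR adjusted p = 0.00919) and Rplp1 of 0.51 (SE 0.13, adjusted p = 0.0171). The lines of Rplp2, Rps4x and Rps27rt held a 1 followed only by zeros, and these genes were not analysed here.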

How the data were processed

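Liver RNA of 20 mice was sequenced with stranded, paired-end libraries, per the labels' protocols. Per the submitters' processing notes, STAR, R 4.05, limma and mm10 were used. How reads were counted, and with which annotation and strand setting, is not given in the sources used here. Deposited values were taken, judging from the file, for expected counts per gene, unscaled, because 2 genes had values that were not whole; all values used were whole, and the planned design had assumed counts. Only intact lines were used (23993 of 35504), and the others were taken as broken by commas in a description column. Of those left out, 9824 held a 1 followed only by zeros, and 570 held values moved right by 1 library. No column of per-sample values was left unused.

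The fit used edgeR 4.0.16 (R 4.3.3): filterByExpr (10207 genes kept), TMM, a quasi-likelihood fit with 1 mean per group over 20 libraries, 7 contrasts, and Benjamini-Hochberg adjustment over all tested genes at 0.05. Adjusted p-values are edgeR's unless another tool is named. Totals of 10883936 to 16134618 counts over intact lines limit the precision of the lowest genes. Alternatives were DESeq2 1.42.0, limma 3.58.1 voom, other scalings and filters, fewer groups, and each library left out. The steps were tested on simulated data. One promoter motif was shortened to CTCGCGA after a longer form had been searched. The genes and lists were chosen with earlier results of these data known. Named genes were a panel, the paralogues, the largest called changes or smallest p per contrast, and the extremes of level and spread; genes without overlap and the flattest and steepest slopes were added after their values were seen. Some genes that this rule names are not reported here and not drawn, though all counts include them.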

Additional observations from a re-analysis of the deposited data

Results flagged for a closer look

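Among 136 sets of 5 libraries checked for a single library far from the other 4, 3 were flagged, where chance flags about 1 in 20. The 3 sets are fewer than that rate would give. Rpl11 was 608.4 CPM in vehicle sedentary replicate 5, against 494.5 to 516.2 CPM in the other libraries of the group. Rps19bp1 was 14.1 CPM in vehicle running replicate 2, against 10.8 to 11.6 CPM. Rps27a was 377.1 CPM in vehicle sedentary replicate 3, against 504.7 to 549.9 CPM.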

How the results depend on the processing

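The median change of the 78 genes kept its sign in each contrast and setting tried, and was 0.31 to 0.53 for OC in running mice, -0.26 to -0.09 for OC in sedentary mice and 0.53 to 0.72 for the interaction. Counts of called genes moved more. For OC in running mice (29) the count was 66 with library totals alone, 47 with DESeq2 and 13 with only the 2 groups compared, and 7 to 51 with single libraries left out. It was 25 with TMM factors computed without these genes, 25 without a filter and 26 with limma voom. With displaced lines put back, which also drops vehicle running replicate 5 (added after seeing the data), it was 35, against 33 without that library alone. Rplp0 and Rplp1 joined the 78 genes in that setting, for its medians too, and both are among the 35. For OC in sedentary mice (0) it was 2 with library totals, both higher, 4 with DESeq2 and 2 with TMM without these genes, all lower, and 0 to 3 with single libraries left out. Running on vehicle (0) gave 1 with DESeq2. OC averaged over activity (6) gave 21 with library totals and 2 to 11 with single libraries left out. The interaction (0) gave 9 with DESeq2. Library totals moved the median of all genes to 0.10 in sedentary and 0.12 in running mice, and changes are best read relative to it. The cause of the other differences was not tested. No paired analysis was possible because the labels carry no replicate numbers shared between groups. Depth limits the lowest genes, such as Rps19bp1.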
